A study of Arabidopsis thaliana with 12 samples.

Results

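The chloroplast genome of Arabidopsis thaliana was followed through late seed development with the 69 probe sets that name 1 gene of the plastid chromosome, out of 22746 probe sets tested. A probe set is the group of short oligonucleotides by which an Affymetrix array reads 1 transcript. The rule for members used annotation and no signal. The platform annotation had to give 1 gene, and the TAIR10.1 gene table had to place that gene on the plastid chromosome. It was set with earlier results of these data known. All 69 encode proteins. They comprise 42 photosynthesis genes (15 of photosystem II, 5 of photosystem I, 6 of the cytochrome b6f complex, 6 of ATP synthase and 10 of the NDH complex), 19 gene expression genes (8 of the small and 7 of the large ribosomal subunit, and 4 of the RNA polymerase) and 8 others (rbcL, accD, clpP, matK, cemA, ccsA, ycf3 and ycf4). Another 8 probe sets name both copies of a gene of the inverted repeat and were kept apart.

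The plastid genome is a remnant of a cyanobacterial chromosome. It encodes core subunits of the photosynthetic complexes together with part of the plastid's own ribosomes and RNA polymerase, while the nucleus supplies the remaining subunits. In plants a bacterial-type polymerase, whose core is encoded by rpoA, rpoB, rpoC1 and rpoC2, transcribes the photosynthesis genes, and a phage-type polymerase of nuclear origin transcribes the rpoB cluster, accD and other housekeeping genes. Arabidopsis embryos are green while they fill with oil and protein, and they lose chlorophyll as they desiccate.

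The arrays held total RNA of excised seeds of the WS accession at 14DAF and 16DAF, which are days after flowering, and from the dry stage. At each stage there were 2 arrays of WT and 2 of KD, 12 in all. Every group was grown in the same greenhouse regime, and each extraction pooled many seeds, so a value is an average over seeds and tissues. What KD abbreviates is not written in the labels. The series concerns seeds of altered lysine metabolism, and it cites a study that combined loss of the lysine-degrading enzyme LKR/SDH with a seed-expressed bacterial enzyme of lysine synthesis. Which of those alleles, which promoter and which line stand behind KD was left unsaid there. The LKR/SDH probe set read 8.87 to 10.61 (log2) in WT arrays and 12.8 to 13.88 in KD arrays. The titles set the groups. The title of dry WT replicate 1 reads WS, the accession, in place of WT, and this array was taken as WT. Its LKR/SDH probe set read 8.87. In 1 array each of WT 16DAF and dry KD (replicate 1 of both) the source name contradicts the title's genotype. There the LKR/SDH probe set read 9.8 and 12.83, each in the range of the titled genotype.

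Signals below are log2 RMA values, so 1 unit is a doubling. The 4 measured embryo markers of 18 (seed storage and oil body genes) had a summed signal of 15.21 to 15.61 before drying and 13.8 to 14.21 in dry seeds. For the 3 measured seed coat markers of 10 the range over the same 3 stages was 9.59 to 10.67, 7.27 to 7.31 and 5.57 to 5.76 in WT, and in KD 9.38 to 10.74, 8.02 to 8.3 and 5.61 to 5.68. The endosperm list (1 measured of 4) was at 3.62 to 5.6 before drying, 5.3 to 5.89 in dry WT and 6.8 to 7.74 in dry KD, and the silique wall and leaf list (1 of 9, RCA) lay between 4.47 and 6.59. The excess of 3-prime over 5-prime signal in 3 control transcripts was 4.11 ± 0.08, 3.9 ± 0.49 and 3.36 ± 0.13 over the 3 successive WT stages, and 3.85 ± 0.37, 3.57 ± 0.25 and 3.4 ± 0.1 in KD (SD, n = 2). The part of tissue makeup and RNA quality in the results was not tested. Labelling was primed with oligo(dT), and most plastid RNAs lack long poly(A) tails, so signals are no measure of how much plastid RNA a seed held. Nothing states that replicates came from separate plants, so the spread behind a p-value is that of these samples and could be technical.

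Most plastid genes were well above the dim range. A group mean of at least log2 5 was reached by 62 of the 69 members. The 7 below it were rpoB, rps14, psaA, petG, petD, ndhF and ndhH, which is 10.1% of the members against 40.5% of all probe sets, and changes in them cannot be sized well. Replicates differed by a median of 0.34 in dry WT seeds, where replicate 1 was higher than replicate 2 in 59 of the 69 members, although over all probe sets the median difference was -0.02. At 16DAF replicate 2 was higher in 48 members in WT (median of replicate 1 minus 2 of -0.19) and replicate 1 in 51 in KD (median 0.18). The 16DAF arrays enter every stage comparison.

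**Figure D1:**
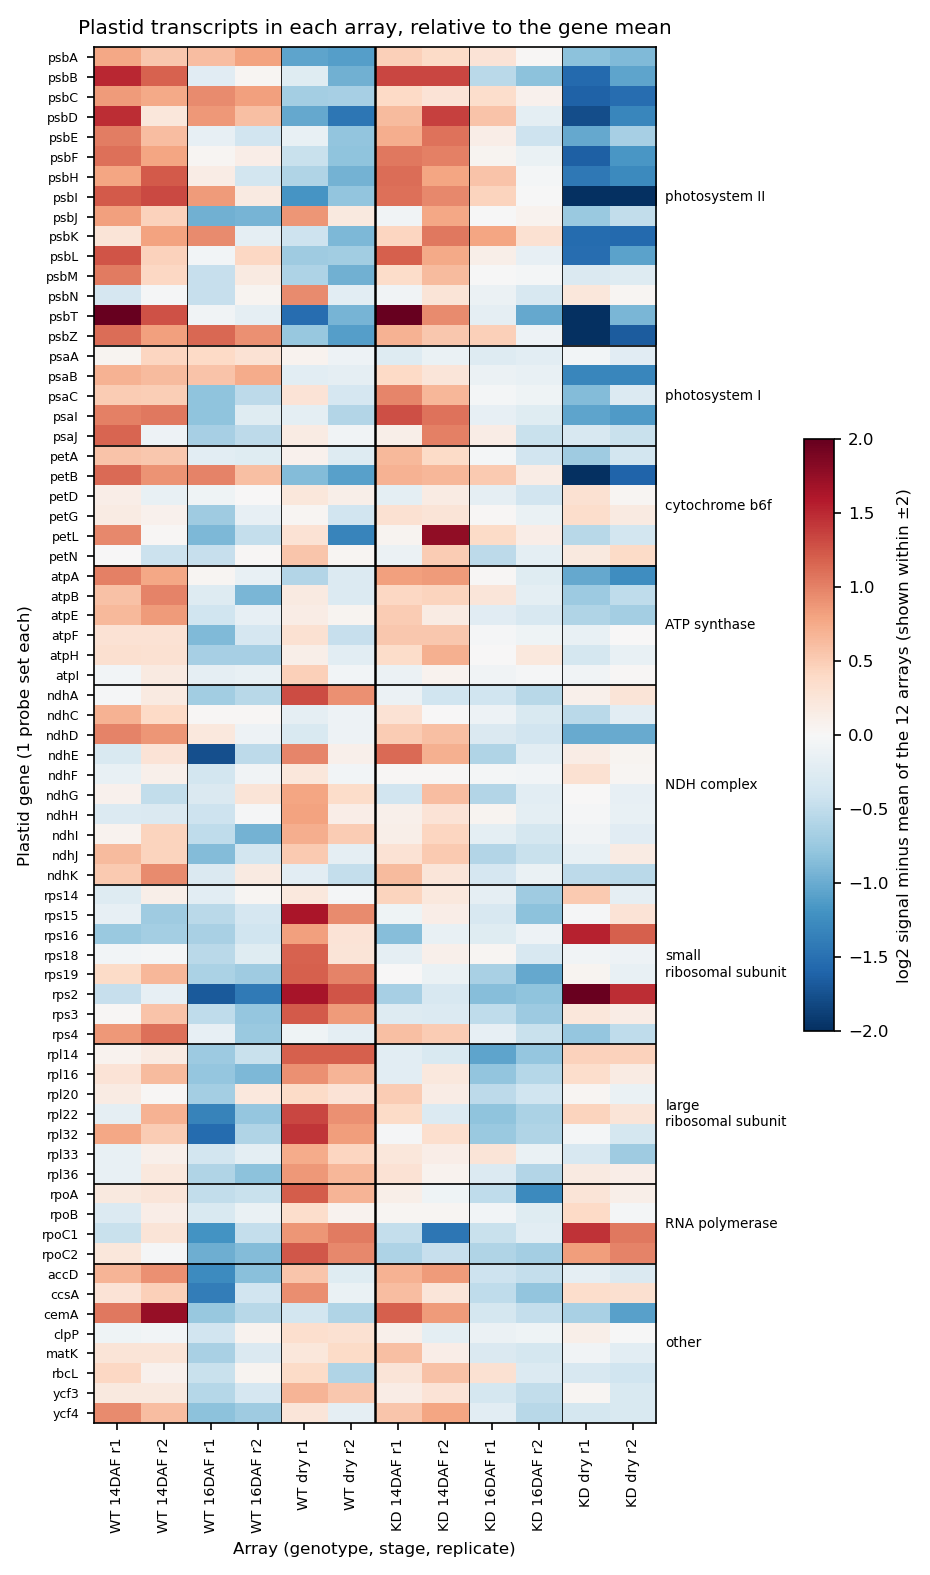
Heat map of the 69 plastid genes (rows, grouped by complex or function) in the 12 arrays (columns), coloured by log2 signal minus the mean of the gene over all arrays. In dry seeds 13 of 15 photosystem II rows in WT and 14 in KD are below their own mean (blue), and 18 of 19 ribosomal and RNA polymerase rows in WT and 13 in KD are above it (red); at 16DAF 19 of these 19 rows in WT and 18 in KD are below it.

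Between 14DAF and 16DAF plastid transcripts went one way. In WT 37 of the 69 genes (53.6%) fell and 0 rose at an adjusted p below 0.05 in limma, with a median change of -0.76. Of all 22746 probe sets 10.3% fell and 9.2% rose, with a median of 0.05. Both classes moved alike: 21 of 42 photosynthesis genes (median -0.78), 10 of 19 gene expression genes (median -0.74) and 6 of the 8 others (median -1.0) fell. In bulk seed RNA fewer plastid-rich cells, fewer plastids per cell, less RNA per plastid and changed poly(A) tailing cannot be told apart.

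Genes of several functions fell by more than 1 log2 unit. cemA, a plastid envelope membrane protein, read 9.73 and 10.43 at 14DAF and 7.93 and 8.12 at 16DAF in WT. accD, a subunit of the acetyl-CoA carboxylase that starts fatty acid synthesis, read 7.11 and 7.35, then 5.18 and 5.6. psaI, a small subunit of photosystem I, read 10.24 and 10.28, then 8.43 and 8.98. In each case both younger arrays were above both older ones. The log2 falls were -2.06 ± 0.24 for cemA (SE, adjusted p = 0.000281, limma), -1.84 for accD (adjusted p = 0.000531) and -1.56 for psaI (adjusted p = 0.000409). Those 3 genes lie side by side with ycf4, an assembly factor of photosystem I, and petA, which encodes cytochrome f. All 5 genes of the stretch fell, with log2 changes of -2.06 to -0.78 in WT and -1.44 to -0.73 in KD. The call of petA was lost in WT on leaving out either 14DAF array (adjusted p = 0.0511 and 0.0652) or 16DAF replicate 2 (adjusted p = 0.0515). In KD petA and ycf4 lost theirs without KD 14DAF replicate 2 (adjusted p = 0.0517 and 0.0518) or KD 16DAF replicate 2 (adjusted p = 0.211 and 0.082), petA also without KD 14DAF replicate 1 (adjusted p = 0.2), and accD without any 1 of the 4 KD arrays compared (adjusted p of 0.0539 to 0.0841).

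Elsewhere on the chromosome, rpl32, a protein of the large ribosomal subunit, changed by -1.72 (adjusted p = 0.00262), psbB, an inner antenna protein of photosystem II, by -1.44 (adjusted p = 0.0028), and atpB, the beta subunit of ATP synthase, by -1.38 (adjusted p = 0.00367). atpB read 12.03 and 12.43 at 14DAF and 11.18 and 10.53 at 16DAF in WT, without overlap, and 11.85 and 11.89, then 11.69 and 11.25 in KD, where its change of -0.4 was not called. psbJ, a small subunit of photosystem II, read 10.11 and 9.75, then 8.32 and 8.36 in WT, a change of -1.59 (adjusted p = 0.00324) that held in every fit that left out 1 array. The most negative estimate belonged to psbT, another such subunit, which read 8.06 and 6.57, then 5.22 and 5.11 in WT. Its change of -2.15 (adjusted p = 0.0348) was lost without WT 14DAF replicate 1 (adjusted p = 0.2), WT 16DAF replicate 1 (adjusted p = 0.075) or WT 16DAF replicate 2 (adjusted p = 0.104).

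Several genes named for their later fall were not called over these days in WT. psbA, psbC, psbD and psbZ of photosystem II, psaB of photosystem I and petB of the cytochrome b6f complex differed by between -0.21 and 0.08, none past the test. On leaving out 1 array the estimate ran from -0.75 to 0.49 for psbD and from -0.41 to -0.02 for petB, so small changes were not detectable with 2 arrays a group. psbA, which encodes a reaction-centre protein of photosystem II with rapid turnover, read 10.9 and 10.67 at 14DAF and 10.75 and 10.94 at 16DAF. psbC, the other inner antenna protein, read 11.83 and 11.73, then 11.92 and 11.79. These ranges overlap. rbcL, the large subunit of Rubisco, was not called either (-0.44 ± 0.32, adjusted p = 0.395). In KD psaB was called lower over the same days (-0.46), though not in every fit that left out 1 array.

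KD seeds went the same way in fewer genes. There 22 of 69 (31.9%) fell and 0 rose, with a median of -0.61, against 4.86% of all probe sets falling and 4.63% rising. They were 12 photosynthesis genes, 5 gene expression genes and 5 others. In both genotypes 20 genes fell, which is 54.1% of the WT list and 90.9% of the KD list; over all probe sets the shared falls were 32.4% and 68.5% of the lists. psbB read 7.6 and 7.61 at 14DAF and 5.73 and 5.45 at 16DAF in KD, a change of -2.02 (adjusted p = 0.00208, limma). psaI changed by -1.39 (adjusted p = 0.00326) and cemA by -1.44 (adjusted p = 0.00632). The KD count rests on few arrays: the number called dropped to 4 or 9 when KD 14DAF replicate 1 or 2 was omitted, to 11 or 3 for KD 16DAF replicate 1 or 2, and to 11 with every array centred on its median. psbB and psaI kept their call in all 12 fits that left out 1 array; cemA lost its call on leaving out KD 14DAF replicate 1 (adjusted p = 0.0619) or KD 16DAF replicate 2 (adjusted p = 0.0543). The test of a genotype difference in the change over this step called 0 members by limma, against 0.356% of all probe sets (0.202% higher), and 8 members (11.6%) had an unadjusted p under 0.05, against 13.7% of all probe sets. Both shares are near the background.

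Of the 37 WT falls 19 kept their call in every fit that left out 1 array, cemA, accD, psaI, rpl32, psbB and atpB among them. The WT count was 25 to 38 over those 12 fits and 22 when only the arrays of the comparison were fitted.

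Drying separated the classes. From 16DAF to the dry seed in WT, 28 of 69 plastid genes (40.6%) rose and 10 (14.5%) fell, against 20.4% and 16.9% of all probe sets. Of the 19 gene expression genes 15 rose and 0 fell, with a median of 1.63. Of the 42 photosynthesis genes 7 rose and 10 fell, with a median of 0.14. In KD, where 12 of 69 (17.4%) rose and 15 (21.7%) fell against 19.6% and 15.3% of all probe sets (34.9% called in all), the gene expression genes counted 11 up and 1 down (median 0.79) and the photosynthesis genes 1 up and 14 down (median -0.44).

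**Figure D2:**
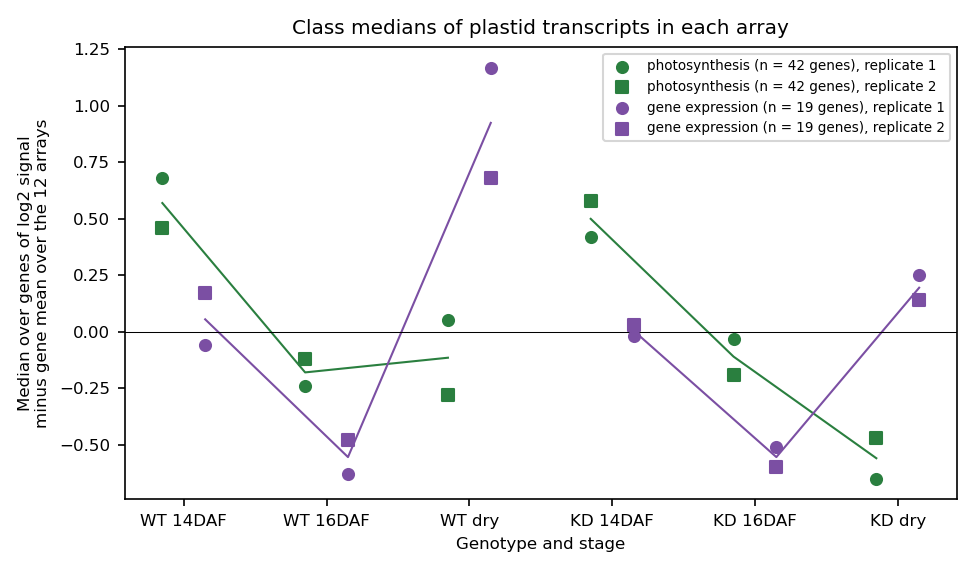
Median over the genes of a class of log2 signal minus the gene mean over the 12 arrays (y axis), for the 42 photosynthesis and 19 gene expression genes in each array of the 6 genotype and stage groups (x axis); lines join group means. Gene expression lies below photosynthesis in all 8 arrays before drying and above it in all 4 dry arrays.

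Expressed per array, the median of the photosynthesis genes minus that of the gene expression genes, each gene set to its own mean, was 0.73 and 0.29 in WT at 14DAF, 0.39 and 0.36 at 16DAF and -1.12 and -0.96 in dry seeds. In KD it was 0.44 and 0.54, 0.48 and 0.4, then -0.91 and -0.61. The 4 dry arrays were all negative and the other 8 all positive. The group mean of this quantity changed by -1.41 in WT and -1.2 in KD on drying, and by -0.14 and -0.05 between 14DAF and 16DAF, against a pooled SD of 0.16 per array. Taken instead from the fitted changes, the median change of the photosynthesis genes minus the median change of the gene expression genes was -1.49 in WT and -1.23 in KD on drying, and -0.05 and 0.05 over the earlier step. With 2 arrays a group the smallest two-sided p of an exact permutation test is 0.333, so these values stand as a description.

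The scale on which drying is read matters for the counts. The median of all signals on an array moved by -0.21 in WT and -0.18 in KD over this step. With each array centred on its median, 36 plastid genes rose and 7 fell in WT (83.7% of calls higher, against 73.7% as deposited), and 19 rose and 14 fell in KD (57.6% against 44.4%).

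**Figure D3:**
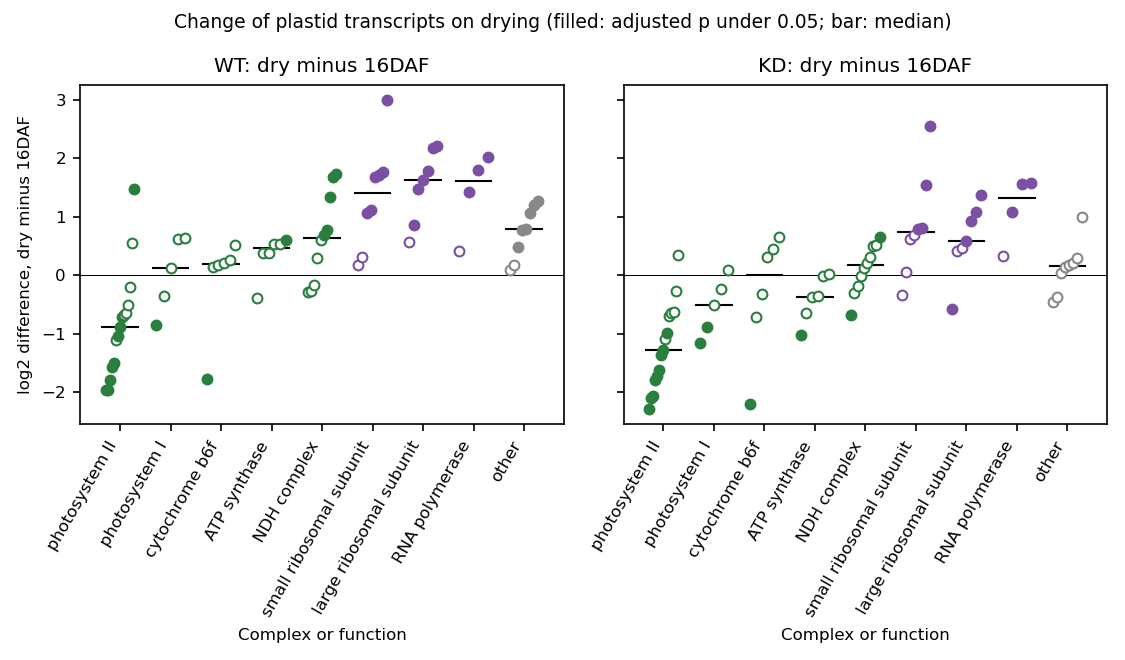
Log2 difference between dry and 16DAF seeds (y axis) for each plastid gene, by complex or function (x axis), in WT and KD. Filled points passed an adjusted p of 0.05 and bars are medians; photosystem II lies mostly below 0 in both panels, with medians of -0.88 and -1.27, and the RNA polymerase genes all lie above 0.

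Photosystem II carried most of the losses. In WT 8 of its 15 genes fell and 1 rose, against 16.9% and 20.4% of all probe sets. In KD 9 fell and 0 rose, against 15.3% and 19.6%. psbA read 10.75 and 10.94 at 16DAF and 9.08 and 9.03 in dry WT seeds, and 10.4 and 10.15 then 9.31 and 9.25 in KD. Its change was -1.79 in WT (SE 0.143, adjusted p = 6.31e-06, limma), or 3.46-fold down, and -0.99 in KD (adjusted p = 0.000321). psbC read 11.92 and 11.79, then 10.29 and 10.31 in WT, and 11.33 and 11.06, then 9.36 and 9.45 in KD. In both genes the dry arrays lay below every earlier array of the same genotype. psbC changed by -1.56 in WT (adjusted p = 1.11e-05) and -1.79 in KD (adjusted p = 4.85e-06).

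The neighbours of psbC moved with it. psbD, the partner of psbA in the reaction centre, psbC and psbZ, a small subunit, are transcribed together. All 3 fell on drying in both genotypes, and in neither genotype did any of them pass the test from 14DAF to 16DAF. psbD read 7.43 and 7.16, then 5.55 and 5.12 in WT, a change of -1.96 (adjusted p = 0.00325, limma). In KD psbD read 7.13 and 6.37, then 4.8 and 5.26, a change of -1.72 (adjusted p = 0.00732) that missed the threshold without KD 16DAF replicate 1 (adjusted p = 0.0704) or KD dry replicate 1 (adjusted p = 0.0617). psbZ changed by -1.96 in WT (adjusted p = 7.42e-05) and -2.06 in KD (adjusted p = 5.44e-05).

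psbI, another small subunit of photosystem II, fell in both genotypes (-1.49 in WT and -2.28 in KD). psbJ was the only photosystem II gene called higher. It read 8.32 and 8.36 at 16DAF and 10.17 and 9.48 in dry WT seeds, close to its 10.11 and 9.75 at 14DAF, a rise of 1.48 ± 0.28 (SE, adjusted p = 0.00199, limma), while its cotranscribed neighbours psbE, psbF and psbL changed by -0.2, -0.71 and -0.88, and of these the falls of psbF and psbL passed the test. The psbF call was lost without WT 16DAF replicate 2 (adjusted p = 0.0528) or WT dry replicate 2 (adjusted p = 0.114), and the psbL call without WT 16DAF replicate 2 (adjusted p = 0.157), WT dry replicate 1 (adjusted p = 0.11) or WT dry replicate 2 (adjusted p = 0.098).

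The cytochrome b6f complex and photosystem I held fewer falls. petB, a haem-binding subunit of the cytochrome b6f complex, read 11.99 and 11.6 at 16DAF and 10.13 and 9.9 in dry WT seeds, and 11.52 and 11.14 then 8.87 and 9.39 in KD. The dry arrays were the lowest of each genotype. petB changed by -1.78 in WT (adjusted p = 9.24e-05, limma) and by -2.2 in KD (adjusted p = 2.34e-05). It was the only called member of the 6 cytochrome b6f genes in either genotype. psaB, a reaction-centre protein of photosystem I, read 13.33 and 13.49, then 12.54 and 12.58 in WT, and 12.63 and 12.6, then 11.45 and 11.45 in KD. psaB changed by -0.85 (adjusted p = 0.00032) and -1.16 (adjusted p = 4e-05). Its partner psaA lay under log2 5 in every group, and no change on drying was called for it.

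ATP synthase and the NDH complex, which feeds electrons back into the photosynthetic chain, behaved otherwise. Of the 6 ATP synthase genes 1 rose in WT and 1 fell in KD, with medians of 0.46 and -0.37. Of the 10 NDH genes 5 rose and 0 fell in WT, and 1 rose and 1 fell in KD. The WT calls of ndhE, ndhH and ndhJ did not hold in every fit that left out 1 array, and ndhH lay under log2 5 in every group. Of all probe sets 20.4% rose and 16.9% fell in WT, and 19.6% rose and 15.3% fell in KD. The ATP synthase counts, and the NDH counts in KD, are near or under these shares. No gene of either complex was called for a genotype difference in the drying change. ndhA read 5.86 and 6.01 at 16DAF and 7.87 and 7.47 in dry WT seeds, a rise of 1.74 ± 0.17 (SE, adjusted p = 2.57e-05, limma). In KD ndhA read 6.17 and 6.0, then 6.66 and 6.82, with no overlap in either genotype; the KD rise of 0.65 (adjusted p = 0.0128) was lost without KD 16DAF replicate 2 (adjusted p = 0.0818) or KD dry replicate 2 (adjusted p = 0.0858).

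**Figure D4:**
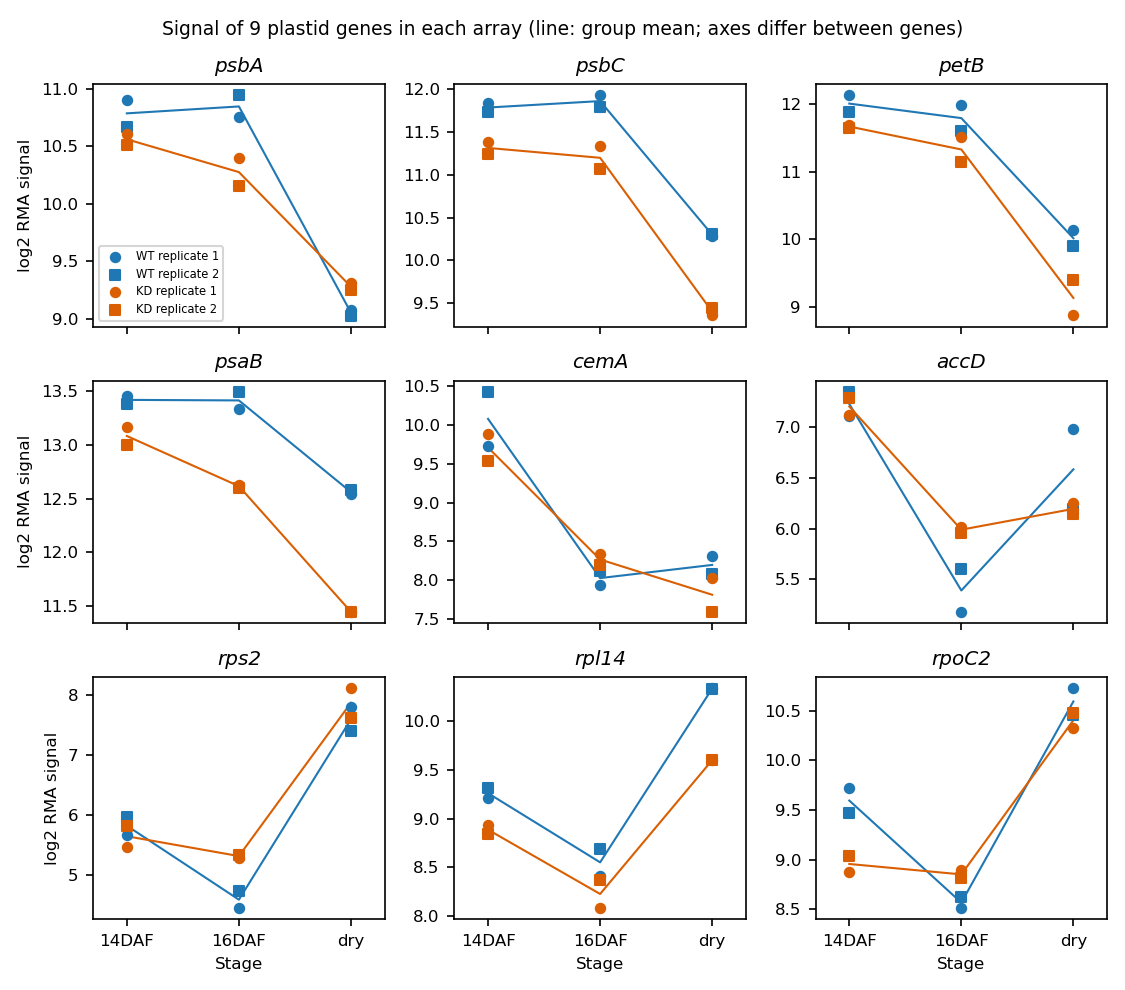
Log2 RMA signal (y axis, scale differs between panels) of 9 plastid genes in every array at the 3 stages (x axis) of WT and KD; lines join group means. psbA, psbC and petB pass the test in WT only between 16DAF and the dry seed, cemA drops before it, and rps2, rpl14 and rpoC2 are highest in dry seeds.

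Genes of the plastid's own expression machinery rose. rps2, a protein of the small ribosomal subunit, read 4.45 and 4.73 at 16DAF and 7.79 and 7.39 in dry WT seeds, and 5.29 and 5.34 then 8.11 and 7.62 in KD. Its dry arrays were far above all earlier ones. The rise was 3.0 ± 0.22 in WT (SE, adjusted p = 3.13e-06, limma) and 2.55 in KD (adjusted p = 9.49e-06). The WT 16DAF values lay under log2 5, where the size of a change is uncertain. rps2 is cotranscribed with atpI, atpH, atpF and atpA. Of these atpH rose in WT (0.61, lost without WT 16DAF replicate 1 or WT dry replicate 1 at adjusted p of 0.054 and 0.126), atpA fell in KD (-1.02), and no other was called.

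In WT all measured genes of the ribosomal cluster that runs from rpl23 to rpoA rose on drying. Of these, rpl23 and rpl2 are read by probe sets naming both copies, and their changes in KD were not called. Each of the other 7 measured genes of the cluster (rps19, rpl22, rps3, rpl16, rpl14, rpl36 and rpoA) rose on drying in both genotypes. These 7 rose by 1.42 to 2.18 in WT and 0.59 to 1.38 in KD. From 14DAF to 16DAF 6 of them had fallen in WT and 4 in KD. rpl14, a large-subunit protein, read 9.21 and 9.31, 8.41 and 8.69, then 10.34 and 10.33 in WT. In KD it read 8.93 and 8.84, 8.08 and 8.37, then 9.6 and 9.6. The dry arrays were thus the highest of each genotype and the 16DAF arrays the lowest. All 7 WT rises kept their call in every fit that left out 1 array; in KD rpl22, rps3 and rpl36 lost theirs without KD 16DAF replicate 2 (adjusted p = 0.0562, 0.0644 and 0.158) or without KD dry replicate 1 (adjusted p = 0.11, 0.0562 and 0.0997), rpl22 also without KD 16DAF replicate 1 (adjusted p = 0.106), and rpl22 and rpl36 without KD dry replicate 2 (adjusted p = 0.0587 and 0.0773).

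The polymerase genes followed. rpoC2, the largest of the core subunits, read 8.51 and 8.62 at 16DAF and 10.73 and 10.46 in dry WT seeds, and 8.89 and 8.81 then 10.33 and 10.48 in KD. Both pairs of dry arrays were above both pairs at 16DAF. rpoC2 rose by 2.03 ± 0.15 in WT (SE, adjusted p = 3.68e-06, limma) and by 1.56 in KD (adjusted p = 2.17e-05). rpoC1 read 6.86 and 7.57 at 16DAF and 8.93 and 9.09 in dry WT seeds, and 7.61 and 7.84 then 9.5 and 9.11 in KD, rising by 1.8 (adjusted p = 0.00196) and 1.58 (adjusted p = 0.00448). rpoB, which leads the same cluster, stayed under log2 5 and was not called (0.42 in WT, 0.33 in KD).

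The machinery was not uniform in every member. rpl33, a protein of the large subunit, rose by 0.86 in dry WT seeds and fell by 0.57 in dry KD seeds, and the KD call was lost on leaving out either KD 14DAF array (adjusted p = 0.0524), KD 16DAF replicate 1 (adjusted p = 0.274) or KD dry replicate 2 (adjusted p = 0.268), and with centred arrays (adjusted p = 0.128). Probe sets that name both copies of a gene also differed. rpl23 and rpl2, at the head of the ribosomal cluster, rose in WT (2.7 and 1.3), and in KD their changes of 0.66 and 0.34 were not called (adjusted p = 0.381 and 0.116). ycf1, a component of the protein import channel, rose by 1.99 in WT and 0.85 in KD, and ndhB by 1.48 and 1.38. Among these probe sets, those of the small-subunit genes rps7 and rps12 had other values. rps7 changed by -0.15 in WT (adjusted p = 0.5) and fell by 0.81 in KD. Of the 2 rps12 probe sets, one changed by -0.2 in WT (adjusted p = 0.293) and fell by 0.69 in KD, and the other fell in both (-0.58 and -1.54).

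Among the other genes, 6 of 8 rose on drying in WT and 0 of 8 in KD, against 20.4% and 19.6% of all probe sets. In KD the estimate was above 0 in 6 of them and below 0 in 2. The test of a genotype difference in the drying change called 0 of the 8, with all 8 estimates below 0. accD returned from 5.18 and 5.6 at 16DAF to 6.98 and 6.19 in dry WT seeds (1.2, adjusted p = 0.0025, limma), and in KD read 6.02 and 5.96, then 6.25 and 6.14. matK, a factor of intron splicing, read 9.1 and 9.47, then 9.98 and 10.14 in WT, a rise of 0.77 that missed the threshold without WT 16DAF replicate 1 (adjusted p = 0.0523). clpP, a subunit of the main protease of the plastid stroma, lay between 11.62 and 12.33 in every array, and its WT rise of 0.48 (adjusted p = 0.0464) is not firm. The call was lost in 9 of the 12 fits that left out 1 array, with 0.25 (adjusted p = 0.334) without WT 16DAF replicate 1, so the count of 6 of 8 includes a gene at the threshold. rbcL lay between 6.95 and 8.13 and was not called in any comparison. 

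Taking both steps in WT, 19 genes (27.5%, against 1.13% of all probe sets) fell and then rose, 9 of them gene expression genes, 5 photosynthesis genes and 5 others. In 8 genes, all of photosynthesis (psbA, psbC, psbD, psbK, psbL, psbZ, psaB and petB), the fall came on drying with no call before it. That is 11.6% of the members, near the 10.7% of all probe sets with this pattern. In KD only 4 genes (5.8%, against 0.422% of all probe sets), all of them gene expression genes, fell and then rose. There 10 genes (14.5%, against 12.2%) fell on drying with no call before it. The 2 steps share the 16DAF arrays, so a low 16DAF signal lowers one and raises the other. Of the WT and KD drying lists, which share no array, 12 rises were common (42.9% of the WT list, 100% of the KD list) and 10 falls (100% and 66.7%). Over all probe sets the shared rises were 71.9% of the WT list and 74.7% of the KD list, and the shared falls 70.9% and 78.1%. psbK, a small subunit of photosystem II, was the least certain of the 8: its WT change of -1.03 (adjusted p = 0.0463) was lost in 7 of the 12 fits that left out 1 array, with an adjusted p of up to 0.341, and that of psbL in 3. In all such fits, 19 of 28 WT rises, 7 of 10 WT falls, 8 of 12 KD rises and 13 of 15 KD falls always kept their call.

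KD seeds gave lower signals for several plastid genes, and the count was highest in dry seeds. At 14DAF only rpoC2 was lower (-0.64, adjusted p = 0.0302, limma; 1.45% of members against 3.92% of probe sets), and it lost its call on leaving out any 1 of the 4 arrays compared (adjusted p of 0.0678 to 0.132). At 16DAF 5 of 69 were lower and 1 higher (7.25% and 1.45%, against 5.88% and 5.22% of all probe sets). In dry seeds 19 of 69 (27.5%) were lower and 0 higher, against 3.9% and 4.01%, and the median was -0.46 against -0.02 for all probe sets. The 19 were 12 photosynthesis genes, 6 gene expression genes and 1 other, and the class medians were alike at -0.5 and -0.61.

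**Figure D5:**
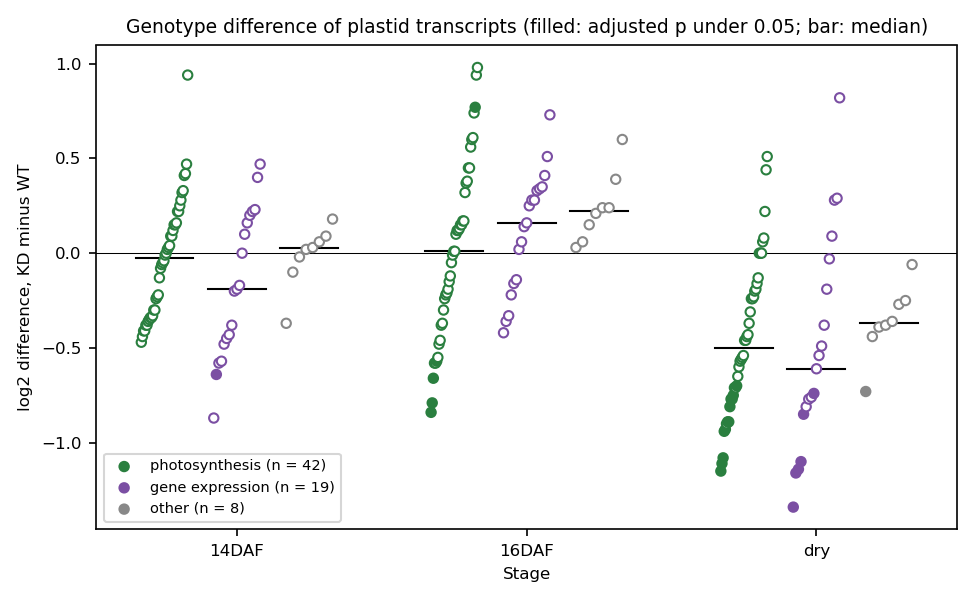
Log2 difference between KD and WT seeds (y axis) of each plastid gene at the 3 stages (x axis), split into photosynthesis, gene expression and other genes. Filled points passed an adjusted p of 0.05 and bars are medians; the dry seed is the stage where all 3 class medians (-0.5, -0.61 and -0.37) lie below 0.

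psaB, psbC and rps19 gave the differences in dry seeds that held in every fit without 1 array. psaB read 13.45 and 13.38 in WT and 13.16 and 13.0 in KD at 14DAF, 13.33 and 13.49 against 12.63 and 12.6 at 16DAF, and 12.54 and 12.58 against 11.45 and 11.45 in dry seeds. KD lay below WT with no overlap at all 3 stages. The difference was -0.33 at 14DAF (not called), -0.79 at 16DAF (adjusted p = 0.003, limma) and -1.11 in dry seeds (adjusted p = 0.000657), and both calls held in every fit that left out 1 array. With only the 4 arrays of the comparison fitted, the 16DAF call was lost (adjusted p = 0.0559). psbC differed by -0.47, -0.66 and -0.89, called at 16DAF (adjusted p = 0.0119) and in dry seeds (adjusted p = 0.00334); the call at 16DAF was lost without WT 16DAF replicate 1 (adjusted p = 0.0575) or KD 16DAF replicate 2 (adjusted p = 0.105).

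At 16DAF psbZ, psaA and psbA were the other lower genes (-0.84, -0.58 and -0.57) and atpH, a membrane subunit of ATP synthase, the higher one (0.77). Without KD 16DAF replicate 2, or without both arrays of conflicting source names, 1 gene was called instead of 6. With only the 4 arrays compared 1 was called higher and 0 lower. With arrays centred on their medians 3 were higher and 2 lower (60% of calls higher, against 16.7%). psaB kept its call without KD 16DAF replicate 2, where the adjusted p was 0.259 for psbZ, 0.139 for psaA, 0.194 for psbA and 0.11 for atpH. Fits without another array ended the call of psbZ (lowest adjusted p 0.0546), psaA (lowest 0.0501) and psbA (0.126, without WT 16DAF replicate 2).

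In dry seeds the ribosomal protein gene rps19 read 11.17 and 10.97 in WT and 10.04 and 9.83 in KD, a difference of -1.14 ± 0.17 (SE, adjusted p = 0.00296, limma). rpl32 read 10.07 and 9.48 against 8.59 and 8.29 (-1.34, adjusted p = 0.0223). The WT arrays were above the KD arrays in both genes. Of the 19 calls, psaB, psbC and rps19 held in every fit that left out 1 array; the count was 6 without WT dry replicate 1, 9 without WT dry replicate 2, 6 without either KD dry array and 8 without both arrays of conflicting source names. rpl32 was not called without WT dry replicate 1 (adjusted p = 0.147), KD dry replicate 1 (adjusted p = 0.0661) or KD dry replicate 2 (adjusted p = 0.167). The high WT dry replicate 1 and the endosperm marker, which was 1.68 higher in dry KD seeds, moved with this comparison, and their part in it was not tested.

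Averaged over the 3 stages, 13 genes were lower and 1 higher in KD (18.8% and 1.45%, against 11.5% and 8.72% of all probe sets, 20.2% in all). psaB (-0.75, adjusted p = 8.67e-05, limma), psbC (-0.68) and rps19 (-0.63) were among the lower ones and kept their call in every fit that left out 1 array. The higher gene was rps16, a small-subunit protein (0.46, adjusted p = 0.0447), whose call was lost in 9 of the 12 such fits (adjusted p of 0.0527 to 0.122).

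The change on drying differed between the genotypes in 2 genes, psbJ and rpl33 (2.9% of members, against 0.611% of all probe sets with a lower value in KD). psbJ read 8.32 and 8.36 then 10.17 and 9.48 in WT, and 9.28 and 9.36 then 8.55 and 8.8 in KD. rpl33 read 7.85 and 8.02 then 8.95 and 8.65 in WT, and 8.47 and 8.08 then 7.9 and 7.5 in KD. In both genes the dry arrays lay above the 16DAF arrays in WT and below them in KD. The KD change of psbJ (-0.64) was not called. Over all members the difference in change was below 0 in 59 of 69, with a median of -0.48, against a median of 0.01 over all probe sets, and 29 members (42.0%) had an unadjusted p under 0.05, as did 13.7% of all probe sets. The differences in change were -2.13 for psbJ and -1.44 for rpl33 (adjusted p = 0.0353 for each, limma), and over the 12 fits that left out 1 array 0 to 4 plastid genes were called. The adjusted p reached 0.127 for psbJ without WT dry replicate 1 and 0.141 for rpl33 without KD dry replicate 2. Neither gene was called without WT 16DAF replicate 1, WT dry replicate 1 or any 1 of the 4 KD arrays at 16DAF and in dry seeds.

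Nuclear genes for the same complexes gave partial counterparts. Of 36 listed nuclear genes of plastid ribosomal proteins 9 were measured, and on drying 6 of them rose in WT (median 1.48) and 7 in KD (median 1.01), with 0 falls; of all probe sets 20.4% rose in WT and 19.6% in KD. Of 56 listed nuclear subunits of the photosynthetic complexes 11 were measured. From 14DAF to 16DAF 5 of these fell in WT and 1 in KD, against 10.3% and 4.86% of all probe sets. On drying 3 fell in each genotype, against 16.9% and 15.3% of all probe sets, and 1 rose in WT. PSBY, a small subunit of photosystem II, changed by -2.65 and then by -1.69 in WT, and LHCB4.3, an antenna protein, by -1.35 and then by -2.09, each past the test. LHCB4.1 and LHCB4.2, also antenna proteins, had higher means in dry seeds: 9.93 and 7.19 in WT against 8.6 and 5.91 at 16DAF. In KD the dry means were 8.52 and 7.16, against 7.35 and 6.42. The list held 1 called rise on drying in WT and 0 in KD. Only 1 of 21 listed nuclear genes of plastid transcription was measured, and its call from 14DAF to 16DAF in WT (0.82) was its only one among the 4 stage comparisons.

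The mitochondrial genome offered the other organelle on the same arrays, with 23 probe sets of 16 genes. From 14DAF to 16DAF 1 rose and 0 fell in WT and 0 were called in KD (median changes of 0.17 and -0.14). On drying 13 rose and 3 fell in WT and 12 rose and 0 fell in KD, with medians of 0.56 and 0.76, against 20.4% and 19.6% of all probe sets rising. cox2, a subunit of the respiratory terminal oxidase, rose by 2.79 and 3.0. In the plastid genome the corresponding medians were -0.76 and -0.61, then 0.52 and 0.02.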

How the data were processed

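The 12 arrays are Affymetrix ATH1 arrays of total RNA treated with DNase and labelled by the 2-cycle Affymetrix protocol, per the labels' protocols. The deposited values are log2 signals, and the submitters' processing notes name RMA and Partek, with no version. Values were used as deposited. The genes of probe sets came from the platform annotation, and their chromosome from the TAIR10.1 gene table: of 22746 probe sets tested (64 controls were left out), 13513 name 1 gene, 503 several and 8730 none here.

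A model with a mean for each of 6 groups was fitted to all probe sets with limma 3.58.1 (R 4.3.3; 6 residual and 4.16 prior degrees of freedom), with Benjamini-Hochberg adjustment over all 22746 probe sets and a threshold of 0.05; every adjusted p is limma's. A leave-one-out fit leaves a group with 1 array, assumed to vary like the others. Every plastid gene could be named; values per array are given for fixed representatives and the largest changes. Members and lists were chosen with earlier results of these data known. Arrays give no counts, so precision is limited by their number.

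Alternatives were arrays centred on their medians, quantile normalization, only probe sets with a group mean of at least log2 5, only the arrays of a comparison, an intensity trend in eBayes, the replicate number as a block, each array left out, and both arrays of conflicting source names left out. No nucleotide or protein sequence was used here.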

Additional observations from a re-analysis of the deposited data

Results flagged for a closer look

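The change on drying differed between the genotypes, by the interaction term of the limma fit, in psbJ and rpl33. For psbJ the KD change minus the WT change was -2.13 (SE 0.402, adjusted p = 0.0353), with a rise in WT in 2 of 2 arrays over the 16DAF arrays and both dry KD arrays below the KD 16DAF arrays. For rpl33 it was -1.44 (SE 0.271, adjusted p = 0.0353), again with opposite directions. Neither psbE, psbF nor psbL, the neighbours of psbJ, passed the same test (-0.5, -0.65 and -0.39). Within KD alone, the drying change of psbJ (-0.64) was not called.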

How the results depend on the processing

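Of 309 comparisons of a count or class difference with an alternative, 268 moved within the tolerance. From 14DAF to 16DAF, 22 genes in place of 37 were called in WT with only the arrays of the comparison, and 11 in place of 22 in KD with centred arrays. KD against WT at 14DAF gave 0 calls in place of 1 with centred arrays, quantile normalization and only the arrays compared. At 16DAF it gave 1 in place of 6 with only the arrays compared and 1 on omitting the pair of arrays whose source name conflicts, and in dry seeds 8 in place of 19 without those arrays. The difference in the drying change gave 1 call with only its own arrays and 0 without the conflicting ones, in place of 2. Without dim probe sets the class difference (median fitted change of photosynthesis minus gene expression genes) on drying was -1.85 in WT and -1.45 in KD.

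Leaving out 1 array at a time gave 3 to 30 calls in KD from 14DAF to 16DAF, 0 to 1 for KD against WT at 14DAF, 1 to 6 at 16DAF, 6 to 20 in dry seeds and 0 to 4 for the difference in the drying change. The class difference on drying ranged from -1.48 to -1.08 in KD. From 14DAF to 16DAF in WT it ranged from -0.13 to 0.2, changing sign without WT 14DAF replicate 1 (0.2) or WT 16DAF replicate 1 (0.04). In KD it ranged from -0.08 to 0.07 over the same days. For KD against WT at 14DAF it ranged from -0.13 to 0.34, with -0.13 without WT 14DAF replicate 2 and -0.01 without KD 14DAF replicate 2. The causes were not tested. For the named genes, 160 of 1821 such comparisons ended a call, 1 made one and 1660 changed neither call nor direction.

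With the replicate number as a block, KD against WT at 14DAF gave 0 calls and the difference in the drying change 0, and the other counts stayed within 1.5 times. Correlations of replicate differences between groups ran from -0.33 to 0.417, the highest between WT and KD at 16DAF. The replicate numbers thus showed no consistent pairing over the groups. A batch shared by some of the arrays was not tested.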
